A study of Mus musculus with 34 samples.

Results

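Gene expression in the hippocampus was compared between 5xFAD-Dp16 mice and 5xFAD mice that had all received tofacitinib. The comparison held the 4 libraries labelled 5xFAD-Dp16 and Tofa and the 5 libraries labelled 5xFAD and Tofa, 9 of the 34 libraries of the series, and no measured value entered this choice. All 9 animals were 6 months old and were gavaged daily with 15 mg/kg tofacitinib over a month. There were 2 females and 2 males among the 5xFAD-Dp16 animals, and 2 females and 3 males among the 5xFAD animals. Dp16 mice, a model of Down syndrome, carry a tandem duplication of the part of mouse chromosome 16 that corresponds to human chromosome 21. 5xFAD mice carry mutant human transgenes, APP among them, driven by the neuronal Thy1 promoter and form amyloid plaques. Both groups carried these transgenes and both received the drug, so by their labels the groups differed in the duplicated segment. Any other genetic difference that goes with the Dp16 line cannot be told apart from the segment. The animals are numbered 1 to 4 in the 5xFAD-Dp16 group and 1, 2, 4, 5 and 6 in the 5xFAD group. The design text counts 6 animals in the 5xFAD group, and number 3 was not analysed here. The labels do not say whether animals of a group came from separate litters, so the p-values measure the spread between animals. That spread was estimated over all 34 libraries, not over these 9 alone. A pair of further comparisons, which share no library with this one, are set beside it. One is 5xFAD-Dp16 (n = 3) against 5xFAD (n = 4) after sham gavage with 0.5% methylcellulose, and the other is Dp16 (n = 5) against wild type (WT, n = 5) with tofacitinib.

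The segment holds the receptor genes for several interferons and for interleukin 10 as well as App, the amyloid precursor. Type I interferon binds a receptor made of Ifnar1 and Ifnar2, and interferon-gamma binds one made of Ifngr1 and Ifngr2. Both receptors signal through Janus kinases to STAT transcription factors, which switch on interferon-stimulated genes, and tofacitinib inhibits Janus kinases. In the brain this pathway acts in microglia, astrocytes and neurons, and an interferon response accompanies amyloid plaques.

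The libraries held 17542165 to 20972693 counts in 5xFAD-Dp16 and 16404790 to 18900339 counts in 5xFAD, and log2 CPM (counts per 1000000 counts of a library, scaled with TMM) correlated between pairs of them at 0.935 to 0.977. Some libraries stood apart in the markers of brain regions, given here as the mean log2 CPM of a marker list. The CA1 list was at 5.66 to 6.21 in the 4 5xFAD-Dp16 libraries, against 3.79 in 5xFAD library 2 and 5.94 to 6.09 in the other 5xFAD libraries. Thalamic markers were at 4.75 in 5xFAD-Dp16 library 1 and 2.90 to 3.25 in the other 5xFAD-Dp16 libraries, against 6.19 in 5xFAD library 2 and 2.93 to 3.72 in the other 5xFAD libraries. Striatal markers were at 4.64 in 5xFAD-Dp16 library 1 and 6.55 in 5xFAD library 2, and at 3.30 to 3.61 in the other 7. Choroid plexus markers were at 4.46 and 3.69 in 5xFAD-Dp16 libraries 1 and 3 and 0.08 and 0.60 in libraries 2 and 4, against 5.83 and 5.24 in 5xFAD libraries 2 and 6 and 0.21 to 0.66 in the others. Dentate gyrus markers were at 4.81 to 5.57 in 5xFAD-Dp16, against 3.72 in 5xFAD library 2 and 5.10 to 5.88 in the other 5xFAD libraries. All these libraries carry the label hippocampus, and dentate gyrus and CA1 markers were present in all of them, at the lowest level in 5xFAD library 2. Values without 5xFAD library 2 are given beside those it moved most. In bulk tissue, fewer cells of a type and less RNA per cell cannot be told apart.

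**Figure D1:**
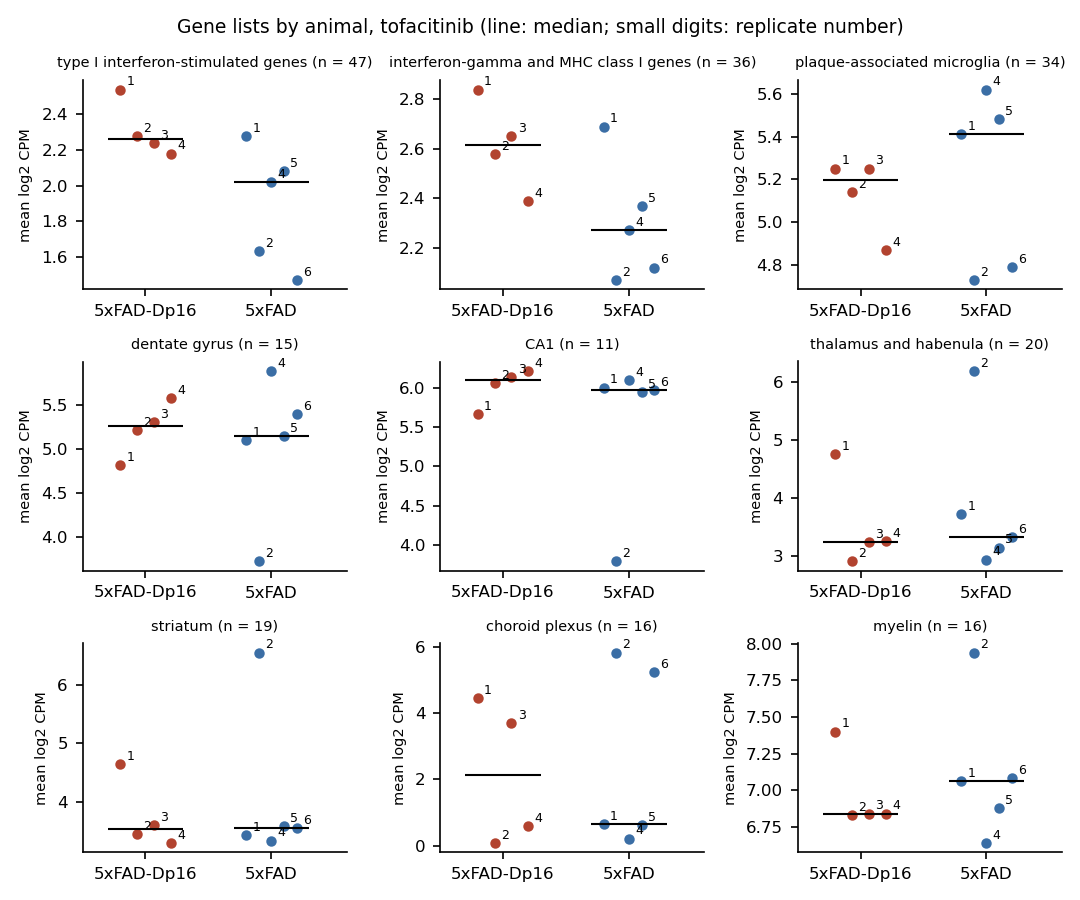
Mean log2 CPM of 9 gene lists in each animal with tofacitinib, with 5xFAD-Dp16 in red to the left of 5xFAD in blue; lines are medians, small digits are replicate numbers and n is the number of genes tested. 5xFAD library 2 is lowest in CA1 markers (3.79) and highest in thalamic (6.19) and striatal (6.55) markers, and the type I interferon list overlaps between the groups.

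Genes of the duplicated segment were higher in 5xFAD-Dp16 hippocampus by a median of 1.46-fold. Its bounds on chromosome 16 were set at 75540514, where Lipi starts, and 97962622, where Zbtb21 ends (GRCm38, 22.4 Mb), and 384 genes of the deposited table lie between them. The filter on low counts kept 107 of them. The other 277 were not tested, 202 of them had no count in these 9 libraries, and the highest of the 277 averaged 0.338 CPM. Of the 107 genes, 33 rose (30.8%) and none fell at an adjusted p below 0.05 in edgeR's quasi-likelihood test with Benjamini-Hochberg adjustment over all 17518 genes. Over all genes tested, 38 (0.217%) passed the same threshold, 36 higher (0.206%) and 2 lower (0.0114%). At an unadjusted p below 0.05, 65 segment genes were higher and none lower (4.94% of all genes passed that level), and DESeq2 called 40 segment genes. The median log2 fold change of the 107 genes was 0.54, with quartiles of 0.34 and 0.61, and 100 of the 107 were above 0. Going from 2 copies to 3 would give 0.58 if RNA followed copy number. The median was -0.01 over all genes and 0.01 over the 426 genes tested on chromosome 16 outside the segment.

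The mean log2 CPM of the 107 genes was 4.06, 3.81, 3.94 and 3.81 in the 4 5xFAD-Dp16 animals, against 3.31, 3.52, 3.34, 3.37 and 3.45 in the 5xFAD animals. The groups did not overlap in this mean. Of single genes, 47 of the 107 (43.9%) were higher in every 5xFAD-Dp16 animal than in any 5xFAD animal, and for none were all 5xFAD-Dp16 animals lower. Over all 17518 genes, 152 (0.868%) separated with 5xFAD-Dp16 higher and 140 (0.799%) with it lower. Without 5xFAD library 2, 28 segment genes passed, 27 of them among the 33, and the median stayed at 0.54. With the 9 libraries fitted alone, without the spread shared by all 34, no gene passed. In that fit 592 of 15788 genes tested had an unadjusted p below 0.05, while the segment median was again 0.54. Without 5xFAD-Dp16 library 3 alone, 24 passed. An alternative chosen after seeing the data left out the 4 libraries high in choroid plexus markers. There 13 segment genes passed and the median was 0.47. Of the compared groups, that fit kept 5xFAD-Dp16 libraries 2 and 4 and 5xFAD libraries 1, 4 and 5. Where a call is lost in that fit, fewer animals and choroid plexus content cannot be told apart.

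The shift was spread along the segment. In 4 equal stretches by position the median log2 fold change was 0.54 (13 genes), 0.55 (12 genes), 0.54 (45 genes) and 0.55 (37 genes). The share of genes called was higher where the level was higher and the SE smaller. Among the 35 lowest genes (0.238 to 5.21 CPM) 1 passed, with a median SE of 0.56, among the 36 in the middle (6.86 to 32.8 CPM) 9 passed, and among the 36 highest (35.5 to 1919 CPM) 23 passed, with a median SE of 0.11. The medians of the 3 levels were 0.44, 0.54 and 0.57. The 95% interval of the fold change held 0.58 for 95 of the 107 genes, and for 59 of these it also left out 0. It lay wholly below 0.58 for Gm9843, Bach1, Scaf4, Olig2, Olig1, Son, Itsn1, Hlcs, Erg and Prdm15, and wholly above it for Dnajc28 and Psmg1.

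**Figure D2:**
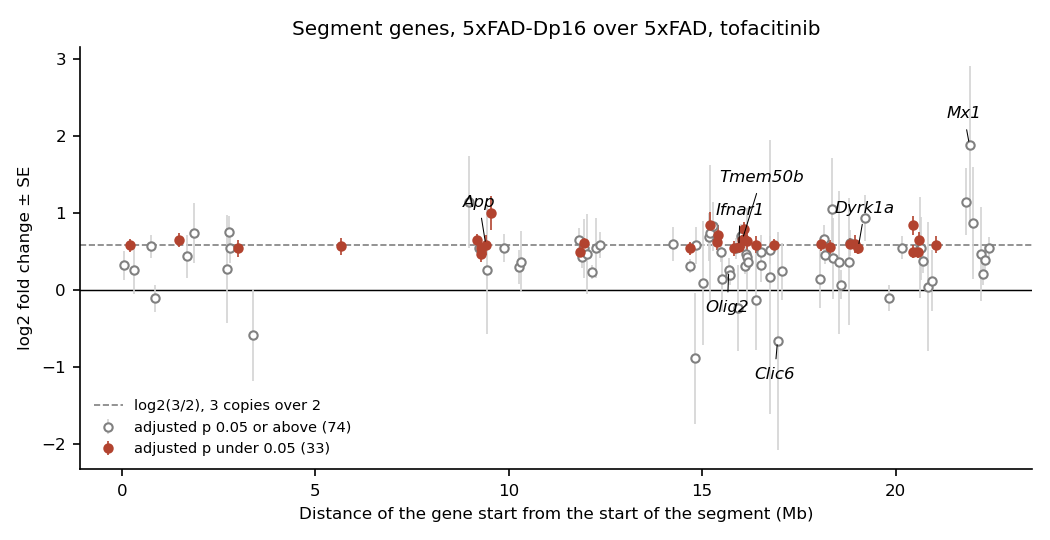
Log2 fold change (5xFAD-Dp16 over 5xFAD, tofacitinib, ± SE) of the 107 tested segment genes against the distance of the gene from the start of the segment in Mb. Filled red points passed the adjusted threshold (33) and open points did not (74); the dashed line marks 0.58, the value of 3 copies over 2, and most points lie near it along the whole segment.

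Both subunits of the type I interferon receptor rose in the 5xFAD-Dp16 animals. Ifnar1 (91485238 to 91507441, plus strand) was at 58.5, 63.8, 51 and 55.6 CPM in 5xFAD-Dp16, against 41.4, 40.5, 36.3, 35.9 and 39.2 CPM in 5xFAD. The lowest 5xFAD-Dp16 animal stood above the highest 5xFAD animal, and the log2 fold change was 0.56 (SE 0.08, adjusted p = 0.000175). Ifnar2 (91372783 to 91405589, plus strand) was at 33, 28.2, 29.5 and 28.5 CPM in 5xFAD-Dp16, against 20.8, 18.7, 21.6, 20.8 and 20.5 CPM in 5xFAD, again without overlap (0.54, SE 0.10, adjusted p = 0.00353). Both passed in each of the 9 refits that left out 1 library. Ifnar2 missed the threshold without the 4 libraries high in choroid plexus markers (adjusted p = 0.665).

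The other 2 cytokine receptor genes of the segment separated the groups but missed the threshold. Ifngr2, the signalling subunit of the interferon-gamma receptor, was at 105, 107, 102 and 106 CPM in 5xFAD-Dp16, against 61.2, 36.3, 74.2, 76 and 75.5 CPM in 5xFAD. The low value of 36.3 belongs to 5xFAD library 2, and the log2 fold change was 0.70 with it (SE 0.16, adjusted p = 0.0529) and 0.53 without it (adjusted p = 0.133). It passed without 5xFAD library 5 (adjusted p = 0.0434). Il10rb, the subunit shared by the receptors for interleukin 10, interleukin 22 and the lambda interferons, was at 15.3, 15, 12.2 and 12.5 CPM in 5xFAD-Dp16, against 9.68, 10.3, 10.7, 7.88 and 8.2 CPM in 5xFAD (0.54, SE 0.14, adjusted p = 0.193). DESeq2 called all 4 receptor genes.

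**Figure D3:**
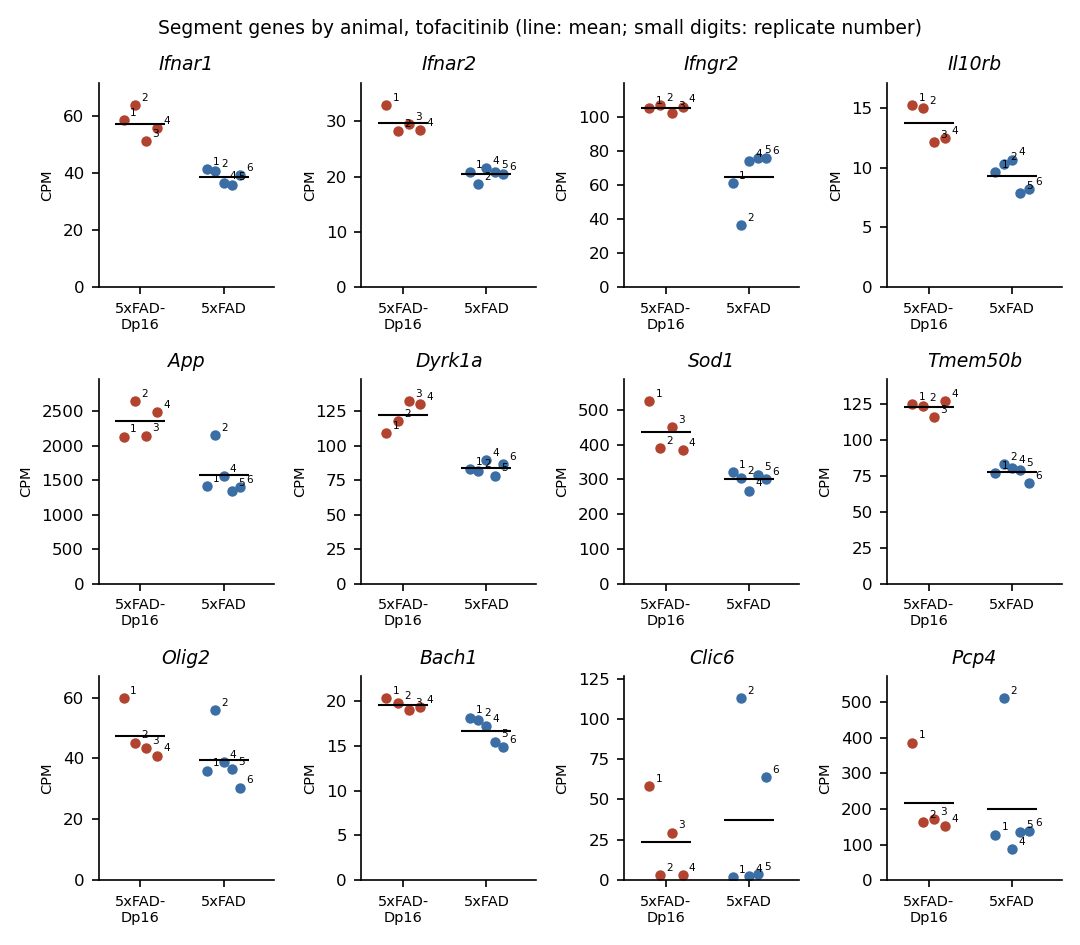
CPM of 12 segment genes in each animal with tofacitinib, with 5xFAD-Dp16 in red to the left of 5xFAD in blue; lines are means and small digits are replicate numbers. Ifnar1, Ifnar2, Dyrk1a, Sod1 and Tmem50b do not overlap, App overlaps through 5xFAD library 2 (2152 CPM), and Clic6 and Pcp4 follow single libraries rather than the groups.

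No gene on the interferon and Janus kinase lists outside the segment passed the threshold. Of the 47 tested type I interferon-stimulated genes outside the segment, none was called by edgeR or by DESeq2, 9 had an unadjusted p below 0.05, all higher in 5xFAD-Dp16, and 41 were above 0. Over all genes, 384 (2.19%) were higher and 482 (2.75%) lower at that unadjusted level. The list's median log2 fold change was 0.32, and it was 0.24 without 5xFAD library 2. Its mean log2 CPM was 2.54, 2.28, 2.24 and 2.18 in the 5xFAD-Dp16 animals, against 2.28, 1.63, 2.02, 2.08 and 1.47 in the 5xFAD animals. The lowest 5xFAD values, 1.63 and 1.47, were in libraries 2 and 6, the 2 that were high in choroid plexus markers. In 5xFAD-Dp16 the highest value, 2.54, was in library 1, which was high in those markers. The lowest there, 2.18, was in library 4, which was low in them. The part of choroid plexus content in the shift was not tested. Ifit3, a typical target of type I interferon, was at 25.4, 18.4, 15.6 and 18.2 CPM in 5xFAD-Dp16, against 20.1, 8.39, 9.75, 14.7 and 7.45 CPM in 5xFAD (0.66, SE 0.27, adjusted p = 0.943). Lgals3bp, a secreted glycoprotein that binds galectins, had a log2 fold change of 0.28 (SE 0.22, adjusted p = 0.999), and it was -0.01 without the 4 libraries high in choroid plexus markers. The interferon-induced GTPases Mx1 and Mx2 lie in the segment itself, and being close copies of each other they may share reads. Mx1 averaged 0.704 ± 0.61 CPM in 5xFAD-Dp16 and 0.164 ± 0.205 CPM in 5xFAD, and Mx2 averaged 1.18 ± 0.477 CPM in 5xFAD-Dp16 and 0.604 ± 0.477 CPM in 5xFAD (SD, n = 4 and 5, adjusted p = 0.999 for each).

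Of 36 genes on the list for interferon-gamma and MHC class I none was called by edgeR or by DESeq2, 4 were higher at an unadjusted p below 0.05, and the median log2 fold change was 0.16, or 0.10 without 5xFAD library 2. The 28 Janus kinases, STATs and feedback regulators also gave no call by either tool, with 2 higher at an unadjusted p below 0.05 and a median of -0.00. Among the kinases that tofacitinib binds, the log2 fold change was 0.15 for Jak1 (adjusted p = 0.999) and 0.25 for Jak3 (adjusted p = 0.999).

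App, the precursor of the amyloid peptide (84949685 to 85173766, minus strand), was the highest segment gene. It was at 2130, 2642, 2145 and 2488 CPM in the 5xFAD-Dp16 animals, against 1410, 2152, 1560, 1348 and 1397 CPM in the 5xFAD animals. The groups overlapped through 5xFAD library 2, at 2152 CPM. The log2 fold change was 0.58 (SE 0.13, adjusted p = 0.0444), and 0.71 without that library (adjusted p = 0.00151). The call was lost in 7 of the 9 refits, with adjusted p of 0.167, 0.0782, 0.141 and 0.133 without 5xFAD library 1, 4, 5 or 6 and 0.176, 0.0798 and 0.205 without 5xFAD-Dp16 library 2, 3 or 4. The sources used here do not say whether counts of App include reads from the human transgene. App averaged 1574 ± 333 CPM in 5xFAD (n = 5) and 1617 ± 246 CPM in WT (n = 5) with tofacitinib. Thy1, whose promoter drives the transgenes, was at 1735, 2848, 2093 and 2610 CPM in 5xFAD-Dp16, against 2277, 967, 2815, 2066 and 1793 CPM in 5xFAD (0.22, SE 0.20, adjusted p = 0.999). Without 5xFAD library 2, at 967 CPM, its log2 fold change was 0.03. With tofacitinib Thy1 averaged 2321 ± 502 CPM in 5xFAD-Dp16 and 1983 ± 681 CPM in 5xFAD. In the groups without transgenes it averaged 893 ± 64.9 CPM (Dp16) and 866 ± 32.4 CPM (WT). The part of transgene reads in the Thy1 counts was not tested. Bace2, a protease that cleaves the precursor within the amyloid sequence, was at 7.27, 3.78, 7.49 and 4.71 CPM in 5xFAD-Dp16, against 1.9, 5.73, 0.968, 1.67 and 2.73 CPM in 5xFAD (1.15, SE 0.43, adjusted p = 0.841), and its log2 fold change was 1.70 without 5xFAD library 2 (adjusted p = 0.111).

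Of the 9 tested kinases and signalling regulators of the segment, Dyrk1a and Rcan1 rose, and all 9 were above 0. Over the whole segment 33 of 107 genes rose (30.8%). Dyrk1a, a kinase that phosphorylates tau and NFAT factors (94570010 to 94695517, plus strand), was at 109, 118, 132 and 130 CPM in 5xFAD-Dp16, against 83, 81.5, 89.5, 78.2 and 86.7 CPM in 5xFAD (0.55, SE 0.08, adjusted p = 0.000107). Rcan1, an inhibitor of the phosphatase calcineurin, was at 84.4, 87.6, 80.6 and 72.9 CPM in 5xFAD-Dp16, against 53.1, 49.4, 56.3, 57.1 and 56.5 CPM in 5xFAD (0.58, SE 0.08, adjusted p = 0.000175). Neither gene overlapped between the groups, and both passed in all 9 refits. Without the 4 libraries high in choroid plexus markers Rcan1 missed the threshold (adjusted p = 0.104).

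Beside 30.8% of all 107 segment genes, 6 of 8 genes rose on the endocytosis list, which also holds App and Rcan1. The median of the list was 0.59. Each refit that left out 1 library gave fewer calls, from 3 (without 5xFAD library 4 or 5xFAD-Dp16 library 3) to 5. Synj1, a lipid phosphatase that uncoats synaptic vesicles, was at 394, 540, 552 and 632 CPM in 5xFAD-Dp16, against 293, 307, 379, 310 and 332 CPM in 5xFAD (0.71, SE 0.13, adjusted p = 0.00279). The lowest 5xFAD-Dp16 animal was library 1, which still stood above all 5xFAD animals. Usp25, a deubiquitinase, rose by 0.65 (SE 0.09, adjusted p = 0.000107). Itsn1, an endocytic scaffold, was at 254, 292, 307 and 343 CPM in 5xFAD-Dp16, against 226, 247, 258, 211 and 216 CPM in 5xFAD (0.37, SE 0.09, adjusted p = 0.148). It passed without 5xFAD-Dp16 library 1 (adjusted p = 0.0237).

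Of 14 adhesion, channel and receptor genes 2 rose, beside 30.8% of all 107 segment genes, and the median of the 14 was 0.39. Without 5xFAD library 2, 3 of them passed and the median was 0.63, and without 5xFAD-Dp16 library 3 or 4 a single gene passed. Ncam2, a cell adhesion molecule of neurons, was at 101, 98.7, 136 and 139 CPM in 5xFAD-Dp16, against 75.9, 87.1, 74, 77.6 and 85.4 CPM in 5xFAD (0.57, SE 0.11, adjusted p = 0.00533). It just missed the threshold without 5xFAD-Dp16 library 3 (adjusted p = 0.0504). Dscam, which guides neurites to avoid their own kind, was at 97, 131, 119 and 147 CPM in 5xFAD-Dp16, against 77.3, 87.8, 96.6, 74.8 and 74.9 CPM in 5xFAD (0.59, SE 0.11, adjusted p = 0.0087), and missed it without 5xFAD-Dp16 library 4 (adjusted p = 0.0944). Ncam2 also missed it without the 4 libraries high in choroid plexus markers (adjusted p = 0.0695), where Dscam passed (adjusted p = 0.0197). Jam2, a tight junction protein, separated the groups (0.55, SE 0.13) at an adjusted p of 0.0646, which was 0.0121 without 5xFAD library 2 and 0.0447 without 5xFAD-Dp16 library 2.

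Other genes of this role followed the libraries rather than the groups. Clic6, a chloride channel protein of the choroid plexus, was at 58.1, 3.01, 29.4 and 3.18 CPM in 5xFAD-Dp16, against 1.73, 113, 2.58, 3.55 and 64 CPM in 5xFAD. Kcne2, a potassium channel subunit of the same epithelium, was at 41.3, 0.287, 10.7 and 0.412 CPM in 5xFAD-Dp16, against 0, 29.5, 0.323, 0.0522 and 29.2 CPM in 5xFAD. High values of both occurred in the 4 libraries high in choroid plexus markers. The 16 such markers outside the segment summed to 3214 and 1370 CPM in 5xFAD-Dp16 libraries 1 and 3 and to 209 and 221 CPM in libraries 2 and 4. In 5xFAD they summed to 6891 and 5091 CPM in libraries 2 and 6 and to 206 to 223 CPM in the others. The log2 fold changes were -0.66 (SE 1.42) for Clic6 and 0.17 (SE 1.78) for Kcne2, and they were 0.54 and 1.18 without 5xFAD library 2. Pcp4, a calmodulin regulator found in CA2, thalamus and striatum, was at 387, 162, 172 and 152 CPM in 5xFAD-Dp16, against 128, 513, 87.7, 135 and 139 CPM in 5xFAD (0.12, SE 0.40). Its 2 highest libraries were those highest in thalamic and striatal markers, and without 5xFAD library 2 its log2 fold change was 0.88 (adjusted p = 0.771). The part of tissue content in these 3 genes was not tested.

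Of 20 transcription and chromatin factors 4 rose, beside 30.8% of all 107 segment genes, and the median of the 20 was 0.36. Hmgn1, a nucleosome-binding protein that loosens chromatin, was at 96.1, 86.2, 102 and 95.4 CPM in 5xFAD-Dp16, against 70.7, 62.5, 66.6, 63.2 and 72.3 CPM in 5xFAD (0.50, SE 0.08, adjusted p = 0.00079). Morc3, an ATPase of nuclear bodies (0.56, SE 0.09, adjusted p = 0.00136), and Brwd1, a reader of acetylated histones (0.50, SE 0.09, adjusted p = 0.0025), rose too. Without the 4 libraries high in choroid plexus markers all 3 missed the threshold (adjusted p of 0.254, 0.154 and 0.238). Gabpa, an ETS-family factor for mitochondrial genes, rose by 0.47 (SE 0.10, adjusted p = 0.0177) and passed in 5 of the 9 refits, and not without 5xFAD library 2 (adjusted p = 0.0682).

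Several factors had log2 fold changes below the segment median. Olig2, which specifies oligodendrocytes, was at 59.9, 45.2, 43.5 and 40.9 CPM in 5xFAD-Dp16, against 36, 55.8, 38.7, 36.4 and 30.4 CPM in 5xFAD (0.26, SE 0.15, adjusted p = 0.999), and its log2 fold change was 0.41 without 5xFAD library 2 (adjusted p = 0.745). Its highest value in each group was in 5xFAD-Dp16 library 1 and 5xFAD library 2, the libraries highest in myelin markers (7.40 and 7.94, against 6.64 to 7.08 in the others). Erg, an endothelial factor, was at 7.91, 7.9, 11.1 and 10.2 CPM in 5xFAD-Dp16, against 11.5, 8.63, 11.3, 9.39 and 9.32 CPM in 5xFAD (-0.11, SE 0.17, adjusted p = 0.999), with an interval from -0.46 to 0.23 that leaves out 0.58. Hlcs, the enzyme that attaches biotin to carboxylases, had a log2 fold change of 0.07 (SE 0.19) and an interval from -0.31 to 0.45, and it was 0.28 without 5xFAD library 2. Bach1, a repressor of antioxidant genes, separated the groups by a small step, 19.6 ± 0.585 CPM in 5xFAD-Dp16 and 16.7 ± 1.47 CPM in 5xFAD (SD, n = 4 and 5), with 0.23 (SE 0.09, adjusted p = 0.943). Gm9843, which RefSeq lists as a pseudogene, had a log2 fold change of -0.11 (SE 0.18), and of -0.26 without 5xFAD library 2.

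Metabolic, proteostasis and RNA genes made up the largest role list, and 18 of its 39 tested members rose, with a median of 0.60. Over the whole segment 33 of 107 genes rose (30.8%). Without 5xFAD library 2, 14 genes of the list passed. Tmem50b, an endoplasmic reticulum membrane protein (91574503 to 91597800, minus strand), had the smallest p of all genes. It was at 125, 124, 116 and 127 CPM in 5xFAD-Dp16, against 76.8, 83.5, 80.8, 79 and 70.3 CPM in 5xFAD (0.65, SE 0.06, adjusted p = 4e-07). Ttc3, a ubiquitin ligase, was at 1246, 1294, 1254 and 1364 CPM in 5xFAD-Dp16, against 839, 886, 826, 857 and 851 CPM in 5xFAD (0.60, SE 0.07, adjusted p = 2.41e-06). Sod1, the cytosolic superoxide dismutase, was at 525, 390, 452 and 385 CPM in 5xFAD-Dp16, against 322, 304, 268, 314 and 301 CPM in 5xFAD (0.54, SE 0.09, adjusted p = 0.000685). No animal overlapped in these 3 genes. Sod1 missed the threshold without the 4 libraries high in choroid plexus markers (adjusted p = 0.503).

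Cct8, a subunit of the chaperonin that folds actin and tubulin, rose by 0.61 (SE 0.07, adjusted p = 9.56e-06). Mrpl39, a protein of the mitochondrial ribosome, rose by 0.65 (SE 0.08, adjusted p = 8.86e-06), and Hspa13, an Hsp70 relative, by 0.58 (SE 0.08, adjusted p = 0.000107). The 2 genes whose whole interval lay above the 3-copy value were Dnajc28, a J-domain protein, at 25, 29.2, 24.3 and 23.3 CPM in 5xFAD-Dp16, against 14.9, 14.7, 15, 16.4 and 12 CPM in 5xFAD (0.79, SE 0.10, interval 0.59 to 0.99, adjusted p = 1.27e-05), and Psmg1. Psmg1, a chaperone of proteasome assembly, was at 24.3, 18.7, 20.5 and 20.7 CPM in 5xFAD-Dp16, against 14.4, 11.9, 10.5, 12.4 and 9.27 CPM in 5xFAD (0.84, SE 0.12, interval 0.60 to 1.08, adjusted p = 0.000107). Per length, the authors' RPKM put Sod1 highest in the segment, at a mean of 693 RPKM in 5xFAD-Dp16, ahead of Pcp4 at 350 RPKM and App at 290 RPKM. Dyrk1a and Ifnar1 averaged 19.6 and 14.8 RPKM there.

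Outside the segment 5 of 17411 genes passed (0.0287%), 3 higher and 2 lower. Cbs, which condenses homocysteine with serine in the transsulfuration pathway (chromosome 17, 31608894 to 31637238, minus strand), fell. It was at 19, 16.8, 23.9 and 24.8 CPM in 5xFAD-Dp16, against 32, 32.1, 39.1, 35.4 and 36.9 CPM in 5xFAD. The groups did not overlap, and the log2 fold change was -0.73 (SE 0.12, interval -0.97 to -0.49, adjusted p = 0.000806). It passed in all 9 refits (adjusted p of 0.000922 to 0.00992) and in DESeq2 (adjusted p = 2.44e-06), and it missed the threshold without the 4 libraries high in choroid plexus markers (adjusted p = 0.072). Over the series, Cbs lay between 15.1 and 26.5 CPM in the 15 libraries that carry Dp16 and between 27.9 and 39.1 CPM in the 19 without it. In the other comparisons its log2 fold change was -0.44 in 5xFAD-Dp16 against 5xFAD with sham (SE 0.13, adjusted p = 0.207) and -0.59 in Dp16 against WT with tofacitinib (SE 0.11, adjusted p = 0.00451). Of the 14 homocysteine and one-carbon genes tested, it was the one that passed, and their median was -0.05.

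The agouti gene, symbol a, encodes a signalling protein that antagonises melanocortin receptors (chromosome 2, 154791402 to 155051012, plus strand). It was at 1.86, 0.861, 2.17 and 2 CPM in 5xFAD-Dp16, against 0.504, 0, 0, 0 and 0 CPM in 5xFAD (log2 fold change 4.04, SE 0.85, adjusted p = 0.0415). With most 5xFAD libraries at 0 the fitted value is no bound. It was 3.71 to 4.33 in the refits that kept 5xFAD library 1, the one with reads, and larger without it (adjusted p = 0.000586). The gene passed in 2 of the 9 refits, without 5xFAD library 1 or 5xFAD-Dp16 library 2, and had an adjusted p of 0.102 without 5xFAD library 2. The gene was named after its values were seen. All 15 libraries that carry Dp16 held reads of it, at 0.861 to 3.16 CPM. Of the 19 libraries without Dp16, 17 held none, and the highest was at 0.504 CPM. No read occurred in 5xFAD with sham or in WT with tofacitinib, where 3 counts, the limit that a count of 0 allows, would be at most 0.173 and 0.206 CPM in a library. Against these limits the gene was at least 8.4-fold higher in 5xFAD-Dp16 with sham (mean 1.46 CPM) and at least 10.6-fold higher in Dp16 with tofacitinib (mean 2.18 CPM).

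Slc5a5, the sodium iodide symporter (chromosome 8, 70882889 to 70892757, minus strand), rose. It was at 31.3, 38.1, 39.2 and 35.2 CPM in 5xFAD-Dp16, against 21.2, 27.4, 16.1, 25.2 and 19.4 CPM in 5xFAD (0.72, SE 0.14, adjusted p = 0.0149), without overlap. It passed without 5xFAD library 2 (0.81, adjusted p = 0.0065), and it missed the threshold without 5xFAD library 4 or 6 (adjusted p of 0.0677 and 0.0593) and without 5xFAD-Dp16 library 2 or 3 (0.0584 and 0.107). In Dp16 against WT with tofacitinib it rose by 0.83 (adjusted p = 0.000941), and in the sham comparison its log2 fold change was 0.46 (adjusted p = 0.294).

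Tmtc3 passed in 3 of the 9 refits and Tmprss7 in 5. Tmtc3, an enzyme of protein O-mannosylation (chromosome 10, 100443902 to 100487350, minus strand), fell: it was at 7.91, 7.37, 7.87 and 9.19 CPM in 5xFAD-Dp16, against 11.6, 15.1, 13.4, 10 and 16.2 CPM in 5xFAD (-0.71, SE 0.15, adjusted p = 0.0261). It missed the threshold without 5xFAD library 2, 4 or 6 (adjusted p of 0.102, 0.0578 and 0.121) and without 5xFAD-Dp16 library 1, 2 or 3 (0.0824, 0.119 and 0.128). Tmprss7 is a membrane serine protease on chromosome 16 ahead of the segment (45656315 to 45693658, minus strand). It was at 1.22, 1.58, 1.25 and 1.71 CPM in 5xFAD-Dp16, against 0.112, 0.0579, 0.258, 0.731 and 0.589 CPM in 5xFAD (2.25, SE 0.46, adjusted p = 0.0171). With tofacitinib the means were 1.44 CPM in 5xFAD-Dp16 and 0.35 CPM in 5xFAD, the lowest of all groups. The other groups averaged 0.894 (Dp16 with sham) to 1.49 CPM (5xFAD with sham). Tmprss7 missed the threshold without 5xFAD library 1, 2 or 4 (0.0832, 0.0824 and 0.0705), without 5xFAD-Dp16 library 2 (0.0773) and with no term for sex (0.153). In the other comparisons the log2 fold change of Tmtc3 was 0.07 with sham (adjusted p = 0.906) and -0.11 in Dp16 against WT (adjusted p = 1), and that of Tmprss7 was -0.08 (adjusted p = 0.969) and -0.07 (adjusted p = 1). Without 5xFAD library 2 there were 3 calls outside the segment (0.0173%), Cbs and Slc5a5 among them.

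**Figure D4:**
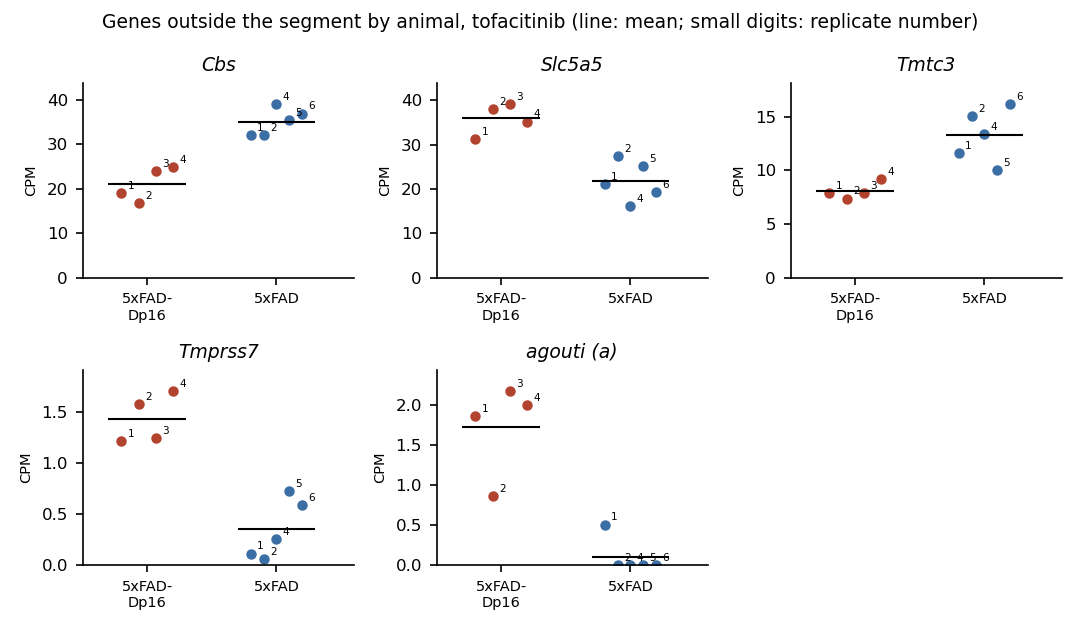
CPM of the 5 genes outside the segment that passed the threshold, in each animal with tofacitinib, with 5xFAD-Dp16 in red to the left of 5xFAD in blue; lines are means and small digits are replicate numbers. Cbs and Tmtc3 are lower and Slc5a5, Tmprss7 and agouti (a) higher in every 5xFAD-Dp16 animal than in any 5xFAD animal.

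The promoters of Cbs, agouti and Tmtc3 are shown because 2 of these genes separated all libraries by Dp16 and because matches to motifs of segment factors fell in the other. They are RefSeq sequences of 300 bases, 250 before to 50 after the gene start, on GRCm38.p6, and 4 of the 5 genes had one. The agouti window lies at a RefSeq start inside the gene span given above, downstream of the start of the GENCODE gene. Capitals mark matches on either strand to CCGGAA, the ETS core bound by Gabpa, Ets2 and Erg, to TGNGGT, the Runx1 motif, or to TGANTCA, the Bach1 and AP-1 motif.
Cbs, chr17:31637156-31637455, minus strand: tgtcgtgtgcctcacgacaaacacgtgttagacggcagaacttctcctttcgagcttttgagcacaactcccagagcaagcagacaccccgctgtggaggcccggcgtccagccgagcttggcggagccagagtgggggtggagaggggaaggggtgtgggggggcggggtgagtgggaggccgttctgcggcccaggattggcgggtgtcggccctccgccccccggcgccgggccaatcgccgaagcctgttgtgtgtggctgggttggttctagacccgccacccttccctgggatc
a, chr2:155013320-155013619, plus strand: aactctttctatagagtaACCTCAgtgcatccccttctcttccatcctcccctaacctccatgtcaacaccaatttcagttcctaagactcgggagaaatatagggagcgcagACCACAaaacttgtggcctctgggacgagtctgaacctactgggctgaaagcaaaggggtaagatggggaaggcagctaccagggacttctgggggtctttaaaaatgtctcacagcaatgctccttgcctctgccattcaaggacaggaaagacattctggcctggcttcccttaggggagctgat
Tmtc3, chr10:100487298-100487597, minus strand: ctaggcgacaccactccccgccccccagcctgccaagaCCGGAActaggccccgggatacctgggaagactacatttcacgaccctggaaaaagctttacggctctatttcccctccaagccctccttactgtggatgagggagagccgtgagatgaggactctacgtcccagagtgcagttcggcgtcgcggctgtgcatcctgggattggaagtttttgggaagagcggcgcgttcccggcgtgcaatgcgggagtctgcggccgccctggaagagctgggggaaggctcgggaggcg
Neither the Cbs promoter nor that of Slc5a5 held any of the 3 motifs in this window. The agouti promoter held 2 TGNGGT matches, at bases 19 and 114 from its 5′ end, both on the opposite strand, and the Tmtc3 promoter held CCGGAA at base 39. Over all 32851 mouse promoters of this length, 14.9% held CCGGAA, 45.8% held TGNGGT and 7.81% held TGANTCA. A match describes the letters of the window and was not tested as a binding site.

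The segment shift was set beside the comparisons that share no library with it. With sham, 33 segment genes rose in 5xFAD-Dp16 against 5xFAD (30.8%, against 0.268% of all genes), with a median of 0.58, and 14 genes passed outside the segment (0.0804%). Of the 33, 26 were among the 33 that rose with tofacitinib, 78.8% of each list. In Dp16 against WT with tofacitinib 37 rose (34.6%, against 0.268% of all genes), with a median of 0.56, and 10 genes passed outside the segment (0.0574%). Of the 37, 26 were shared, 78.8% of the genes that rose here and 70.3% of those that rose there. Across the 107 genes, the log2 fold changes of this comparison correlated with those of the sham comparison at a Pearson r of 0.44 and with those of Dp16 against WT at 0.14. Genes in 1 library share its depth and tissue content, so these are descriptions.

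**Figure D5:**
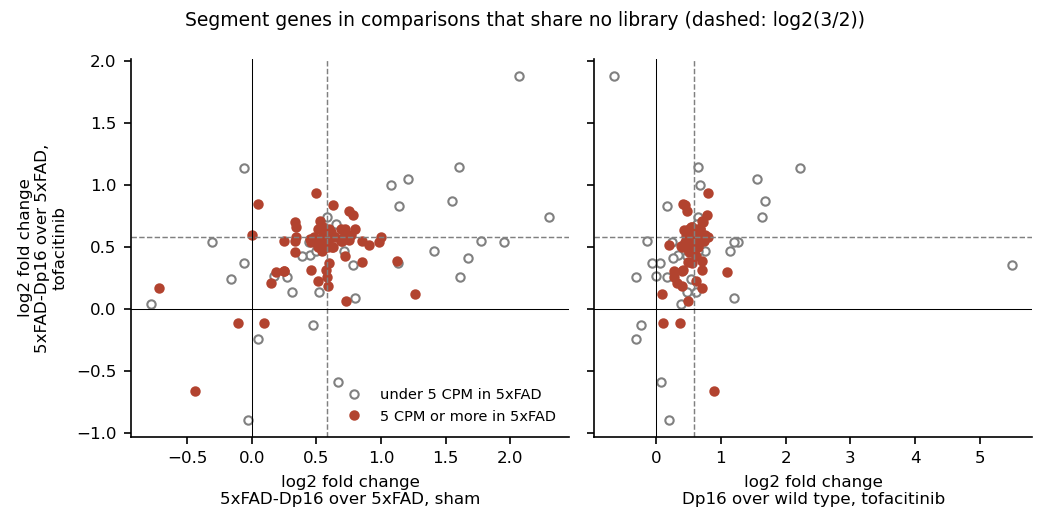
Log2 fold changes of the 107 segment genes in 5xFAD-Dp16 over 5xFAD with tofacitinib (vertical axes) against those in 5xFAD-Dp16 over 5xFAD with sham (left) and in Dp16 over wild type with tofacitinib (right); filled points average 5 CPM or more in 5xFAD. Dashed lines mark 0.58, and the filled points cluster where these lines cross in both panels.

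The difference between effects was tested with interaction terms of the same edgeR fit. For the effect with tofacitinib minus that with sham, no gene passed (smallest adjusted p = 0.468), 1446 of all genes (8.25%) had an unadjusted p below 0.05, and DESeq2 called 5. For the effect on the 5xFAD background minus that without transgenes, no gene passed (smallest adjusted p = 1), 438 (2.5%) had an unadjusted p below 0.05, and DESeq2 called none. Over the segment, 6 and 5 genes had an unadjusted p below 0.05, and the median differences were -0.06 and -0.04 on the log2 scale. A p that misses the threshold does not show that the effects were equal. For Ifnar1, levels were 57.2 ± 5.37 CPM in 5xFAD-Dp16 and 38.7 ± 2.47 CPM in 5xFAD with tofacitinib (SD, n = 4 and 5), 57.3 ± 2.64 and 37.8 ± 1.77 CPM in the same genotypes with sham (n = 3 and 4), and 58.4 ± 4.61 CPM in Dp16 and 37.1 ± 4.68 CPM in WT with tofacitinib (n = 5 each).

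The type I interferon list had a median log2 fold change of 0.32 here, 0.64 with sham and 0.27 in Dp16 against WT with tofacitinib, with no call in any of the 3. Its mean log2 CPM ranged from 2.18 to 2.54 in 5xFAD-Dp16 and 1.47 to 2.28 in 5xFAD with tofacitinib. With sham it ranged from 2.46 to 2.90 in 5xFAD-Dp16 and 1.83 to 2.15 in 5xFAD, and with tofacitinib from 1.48 to 1.95 in Dp16 and 1.10 to 1.68 in WT.

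Glial, neuronal and vascular lists gave no other call. In all, 31 lists outside the segment held 554 distinct tested genes, of which Cbs passed in edgeR, 19 were higher and 12 lower at an unadjusted p below 0.05, and DESeq2 called 1. Their median was 0.01. Plaque-associated microglial genes had a median of -0.12 over 34 genes, and 9 were above 0. Their mean log2 CPM was 5.25, 5.14, 5.25 and 4.87 in 5xFAD-Dp16, against 5.41, 4.73, 5.62, 5.48 and 4.79 in 5xFAD. The 2 low 5xFAD values were libraries 2 and 6, and without library 2 the median was -0.25. Cst7, a cystatin induced in microglia at plaques, was at 16.7, 19, 21.4 and 11.7 CPM in 5xFAD-Dp16, against 22.8, 6.77, 38.3, 36.6 and 6.59 CPM in 5xFAD (-0.35, SE 0.58, adjusted p = 0.999), and its log2 fold change was -0.65 without 5xFAD library 2. The 5xFAD animals thus spanned a wider range than the 5xFAD-Dp16 animals, and the groups overlapped. Homeostatic microglial genes had a median of -0.14 over 18 genes (-0.25 without 5xFAD library 2) and reactive astrocyte genes one of 0.23 over 27 (0.08 without it), with no call by edgeR or DESeq2 in either and 1 gene each at an unadjusted p below 0.05.

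Gfap, the intermediate filament of reactive astrocytes, was at 956, 858, 1168 and 886 CPM in 5xFAD-Dp16, against 1121, 202, 1195, 998 and 611 CPM in 5xFAD (0.23, SE 0.36, adjusted p = 0.999). Without 5xFAD library 2, at 202 CPM, its log2 fold change was -0.04. Lists of thalamus (median -0.73), striatum (-1.05) and choroid plexus (-1.01) had the lowest medians of the lists outside the segment, with no call, and without 5xFAD library 2 their medians were 0.34, 0.31 and -0.00. Myelin genes had a median of -0.21, and of 0.04 without that library. MHC class II genes (median 0.64 over 7 genes), meningeal and fibroblast genes (0.50 over 13 genes) and ependymal genes (0.50 over 15 genes) had the highest medians of the lists outside the segment, with no call by edgeR or DESeq2, and 1 of these genes, an ependymal one, had an unadjusted p below 0.05.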

How the data were processed

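RNA of 34 hippocampi was read on strand-specific, poly-A selected, paired libraries, per the labels' protocols. The authors deposited raw counts per gene, 1 column per library. They also deposited RPKM, which is scaled by gene length and depth and was used here for levels between genes. Per the submitters' processing notes the tools were HTSeq 0.6.1, HISAT2 2.1.0, SAMtools 1.5, bcl2fastq and FastQC 0.11.5, the build was GRCm38, and no roles are given. How strand was treated in counting is not stated, so overlapping, antisense and near-identical genes (Ifit, Oas, Mx and MHC class I families) may share reads.

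Libraries of all 34 animals (14897846 to 21106582 counts) entered 1 edgeR 4.0.16 fit (R 4.3.3, TMM, filterByExpr, 8 group means and sex, robust quasi-likelihood F-test, two-sided, 25 residual degrees of freedom). Adjusted p-values are Benjamini-Hochberg over 17518 genes, with a threshold of 0.05, and come from this test unless DESeq2 1.42.0 is named. The level of a list in an animal is the mean of its genes' log2 CPM, computed with prior count 2. Positions came from GENCODE vM21, which held 99.6% of the table's 55385 gene IDs. Limits from a count of 0 use 3 counts and cover counting error only. The script was tested on simulated data. Alternatives were DESeq2, its size factors, no filter, no sex term, a replicate block, surrogate variables (sva 3.50.0), the 9 libraries alone and leaving out libraries.

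The comparison and the gene lists were chosen with earlier results of these data known. Named genes were the receptors and other check genes, the 10 segment genes with the smallest p, the 5 lowest changes at 5 CPM or more, the genes past the threshold outside the segment (up to 10 largest changes each way at 1 CPM or more), the same without 5xFAD library 2 (up to 5 each way, or the 5 smallest p where fewer than 5 passed), the 3 smallest p of each list with 2 calls or more, and the 5 smallest p of each interaction. Gene models outside the segment known by a model number alone enter the counts but are not given by name. The other genes given with values (agouti, Bace2, Kcne2, Mx1, Mx2, Jak1 and Jak3 among them) were chosen after their values were seen.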

Additional observations from a re-analysis of the deposited data

Results flagged for a closer look

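In 174 groups of 4 or 5 animals checked, 13 held a library apart from the rest of its group, 7 in named genes and 6 in lists, where chance alone flags about 1 in 20. 5xFAD library 2 was apart in App (2152 CPM), Pcp4 (513 CPM) and the lists of CA1 (3.79), thalamus and habenula (6.19), striatum (6.55) and neocortex (4.17), as mean log2 CPM. 5xFAD-Dp16 library 1 was apart in Pcp4 (387 CPM), Glra1 (1.22 CPM), a glycine receptor subunit, and the myelin list (7.40). 5xFAD-Dp16 library 4 was apart in Brwd1 (86.6 CPM) and Thap7 (24.2 CPM). 5xFAD library 4 was apart in Hspa13 (43.8 CPM) and the MHC class II list (0.62).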

How the results depend on the processing

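The segment median of 0.54 kept its direction under all alternatives run, at 0.47 to 0.54, and at 0.50 to 0.56 when 1 library was left out. The count of 38 called genes depended most on the fit. It was 273 with no filter on low counts (95 higher, 178 lower), with 31281 genes tested. With the compared groups alone it was 0, and 592 of 15788 genes tested had an unadjusted p below 0.05. It was 13 without the 4 libraries high in choroid plexus markers, and 26 to 39 when 1 library was left out. The 33 segment calls were 0 with the compared groups alone, 13 without those 4 libraries and 24 to 33 with 1 library left out. The 5 calls outside were 225 with no filter, 13 in DESeq2, 2 with a replicate block, 0 with the compared groups alone, 0 without the 4 libraries and 2 to 7 with 1 library left out. Tofacitinib and sham effects differed for 849 genes with no filter and 5 in DESeq2, and the 5xFAD and transgene-free effects for 58 with no filter, and leaving out 1 library gave 0 to 0 calls for both. The causes were not tested. Animals with the shared numbers 1, 2 and 4, which also match in sex, correlated at 0.0391, -0.195 and 0.255. These values do not settle whether same-numbered animals were paired. The replicate block gave 27 calls, 25 in the segment. Changes of sign were in genes that had not passed. Gfap was at -0.02 without the 3 libraries low in hippocampal markers and -0.02 without 5xFAD 2 and 5xFAD-Dp16 1, at -0.37 without the 4 choroid-high libraries and from -0.04 to 0.40 with 1 library left out. Lgals3bp was at -0.01 without those 4. Clic6 was at 0.15 with the replicate block, 0.30 without the 3 and 0.30 without the 4 libraries, and from -1.68 to 0.54 with 1 left out. Hlcs was at -0.06 and Pcp4 at -0.04 with the replicate block, and with 1 left out they ran from -0.03 to 0.28 and from -0.30 to 0.88. The 35 lowest segment genes had a median SE of 0.56, against 0.11 in the 36 highest.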
